A study of Arabidopsis thaliana with 80 samples.

Results

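Vel was compared with Col-0 in the first of 4 collections of Arabidopsis thaliana rosettes, using 6 Vel and 5 Col-0 libraries out of 80 in the series. Vel is a natural accession from southern Spain, and Col-0 is the laboratory line on which the reference genome was built. Both were grown from seed in pots in 1 common garden in southern Spain, so they shared the site, the soil mix and the sampling hours. The labels name no treatment and no sampling date. Whether both accessions were sampled on the same days, in the same weather, is therefore unknown. Vel contributed 3 morning libraries (10:00 to 10:30) and 3 libraries from 15:30 to 16:00, a window the labels call evening. Col-0 contributed 3 morning and 2 evening libraries, with no evening replicate 2 used here. The collection is labelled ex1, and the labels do not say which of the vegetative, inductive and reproductive stages it was. The tag that carries it is named for extraction, so a collection and a batch of RNA extraction cannot be told apart. Each library is polyA RNA from the aerial rosette of a pool of 5 plants. The labels do not say that the pools came from separate sowings, so p-values speak of how pools within 1 garden vary. All differences below are Vel minus Col-0 with equal weight to morning and evening unless another pair is named.

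Winter-annual accessions of this species flower after a long cold season. FRI raises transcription of FLC, a MADS-box repressor of flowering, and cold silences FLC through VIN3 and Polycomb proteins, which releases the floral promoters SOC1 and FT. Col-0 is known to carry a FRI allele without function and to flower early. Accessions also differ in their glucosinolates, sulfur compounds that myrosinases split into toxic products after tissue damage, and in their sets of nucleotide-binding immune receptors.

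Values are in log2(value + 1) units of a length-normalised expression estimate, quantile-normalised, so that a given rank carries an equal value in all libraries. No counts are given, so depth is unknown, and differences of genes with low values are understated. Reads of every accession were aligned to the Col-0 genome. For any gene below that was lower in Vel, less RNA and a missing or diverged Vel copy therefore cannot be told apart. The number of genes above 0 was 20428 to 21234 per Vel library and 21316 to 21918 per Col-0 library. On the first principal component of the 11 libraries, with 42.0% of the variance, all Vel libraries lay on one side and all Col-0 libraries on the other. The second, with 33.3%, separated morning from evening. The library Col-0 morning replicate 3 stood apart, with Pearson correlations across genes of 0.958 and 0.963 with the other Col-0 morning libraries, which had 0.991 with each other. Over all genes it was still closest to a Col-0 morning library among the 80. Of 178 listed or named genes that differed, 153 still did so without it. For the genes and lists described below, values without it are given where the call ended, a list count changed or a difference moved by over 1.5 times. Tissue markers fitted the label. The summed back-transformed level of 6 leaf markers was 21480 to 22650 in Vel and 20420 to 22700 in Col-0. For 7 flower organ markers that sum was 0.448 to 1.18 and 0 to 0.327, with 3 and 4 members at 0 in every library of Vel and of Col-0. The 7 root markers summed to 15.3 to 23.5 in Vel and 14.8 to 27.4 in Col-0, and 6 seed markers to at most 0.640 and 0.360.

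Of 20880 genes tested, 8205 (39.3%) differed at a limma adjusted p under 0.05, with 4167 (20.0%) higher and 4038 (19.3%) lower in Vel. Most of these differences were small, with 511 genes (2.45%) called and at least 2-fold higher and 686 (3.29%) called and at least 2-fold lower. The median over all genes tested was 0.00. The 6 Vel libraries lay above all 5 Col-0 libraries in 1192 genes (5.71%) and below them in 1397 (6.69%). These shares are the background for every list below. The flavonoid and anthocyanin genes and the immune receptors lay far from it, with most members lower in Vel.

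**Figure D1:**
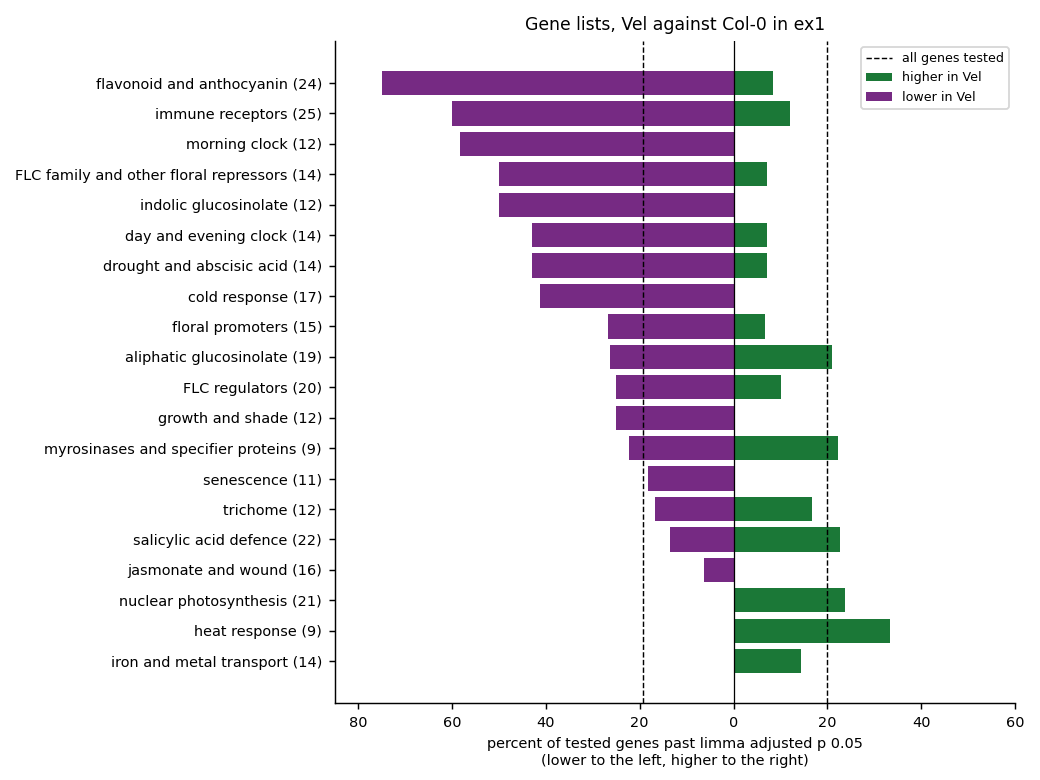
Percent of tested genes of each list with 9 or more tested members that were higher (right, green) or lower (left, purple) in Vel than in Col-0 in ex1 at a limma adjusted p under 0.05, with the number tested in brackets. The nitrate list, added after the values were seen, is not shown. Dashed lines mark the shares over all 20880 genes, 20.0% and 19.3%, and 18 of 24 flavonoid and anthocyanin genes lay on the lower side.

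The floral repressor FLC was far higher in Vel, while 7 of the other 13 floral repressors were lower. Floral promoters were near the background as a list. FLC had 5.35, 5.27 and 5.34 in Vel morning pools and 5.16, 5.12 and 5.26 in Vel evening pools, against 1.3, 1.62 and 1.37 in Col-0 morning pools and 2.29 and 1.82 in Col-0 evening pools. Every Vel pool was far above every Col-0 pool, and the difference was 3.50 (SE 0.121, limma adjusted p = 1.2e-32), a ratio of 11.3 on the log2(value + 1) scale. FRI itself had 2.04 to 2.41 in Vel and 1.90 to 2.29 in Col-0, a difference of 0.06 (SE 0.0951, limma adjusted p = 0.682). FLC in Bon and Moj, the other Spanish accessions of the garden, averaged 5.46 and 5.37, against 5.25 in Vel.

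Of 14 floral repressors, FLC was the 1 that was higher, 7 were lower and 6 did not pass (median -0.29, all genes 0.00), and without Col-0 morning replicate 3 the lower genes were 6. The MAF genes are FLC relatives, of which MAF2 to MAF5 lie in tandem, so that reads of similar stretches may be split between them. MAF2 had 3.85 to 4.32 in Vel and 4.83 to 5.22 in Col-0, a difference of -1.0 (SE 0.159, limma adjusted p = 7.2e-07). MAF4 was listed at 0 in 4 of 6 Vel libraries and reached 0.41, against 1.33 to 2.02 in Col-0 (-1.60, SE 0.163, limma adjusted p = 3.1e-12). MAF5 reached 0.80 in Vel and lay at 1.86 to 2.36 in Col-0 (-1.79, SE 0.216, limma adjusted p = 6.2e-10). For all of MAF2, MAF4 and MAF5 the accessions did not overlap. MAF3, between them in the cluster, had 5.51 to 6.23 in Vel and 5.15 to 5.51 in Col-0, a difference of 0.50 that did not pass (SE 0.377, limma adjusted p = 0.306). Low MAF5 was not shared with the other Spanish accessions, whose means were 3.95 in Bon and 3.87 in Moj, and Vel was below both (limma adjusted p = 1.9e-22 and 2.3e-20).

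Of 20 FLC regulators, 2 were higher and 5 lower (median -0.01), and 1 and 4 without Col-0 morning replicate 3. VIN3, the cold-induced protein that starts FLC silencing, had 0.62, 0.35 and 0.90 in Vel mornings and 2.95, 2.42 and 2.83 in Vel evenings, against 1.80, 1.43 and 2.23 in Col-0 mornings and 4.07 and 4.47 in Col-0 evenings. VIN3 was lower in Vel at both hours, by -1.37 on average (SE 0.170, limma adjusted p = 1.5e-09), although evening pools of Vel exceeded morning pools of Col-0. VRN2, a Polycomb subunit that keeps FLC silent, was lower, with a difference of -1.08 (SE 0.085, limma adjusted p = 2.0e-16), with no overlap. VRN5, a partner of VIN3, and FVE, an autonomous-pathway repressor of FLC, were higher by only 0.27 each (limma adjusted p = 0.0049 and 0.0041). FVE lost its call without Col-0 morning replicate 3 (0.18, limma adjusted p = 0.0514), and both lost it with the 11 libraries alone (limma adjusted p = 0.0729 for VRN5 and 0.0774 for FVE).

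Of 15 floral promoters tested, 1 was higher and 4 were lower (median -0.16). SOC1, a MADS-box integrator that FLC represses, had 4.01, 3.61, 3.32, 4.28, 4.14 and 4.20 in Vel and 4.26, 4.18, 4.80, 5.37 and 5.09 in Col-0. The ranges met only where Vel evening pools were level with Col-0 morning pools, and the difference was -0.89 (SE 0.165, limma adjusted p = 1.4e-05). AGL19, a promoter that acts apart from FLC after cold, had 1.06 to 1.73 in Vel and 2.59 to 3.96 in Col-0, a difference of -2.14 (SE 0.186, limma adjusted p = 1.2e-14). FD, the partner of FT at the shoot tip, was lower, with a difference of -1.11 (SE 0.193, limma adjusted p = 4.5e-06). SPL4, an age-pathway gene, was higher by 0.87 (SE 0.252, limma adjusted p = 0.0045), but with overlap, and without Col-0 evening replicate 1 the difference was 0.68 (limma adjusted p = 0.0620). FT was listed at 0 in all 6 Vel libraries and in 4 of 5 Col-0 libraries, so a difference could hardly be seen (limma adjusted p = 0.820).

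**Figure D2:**
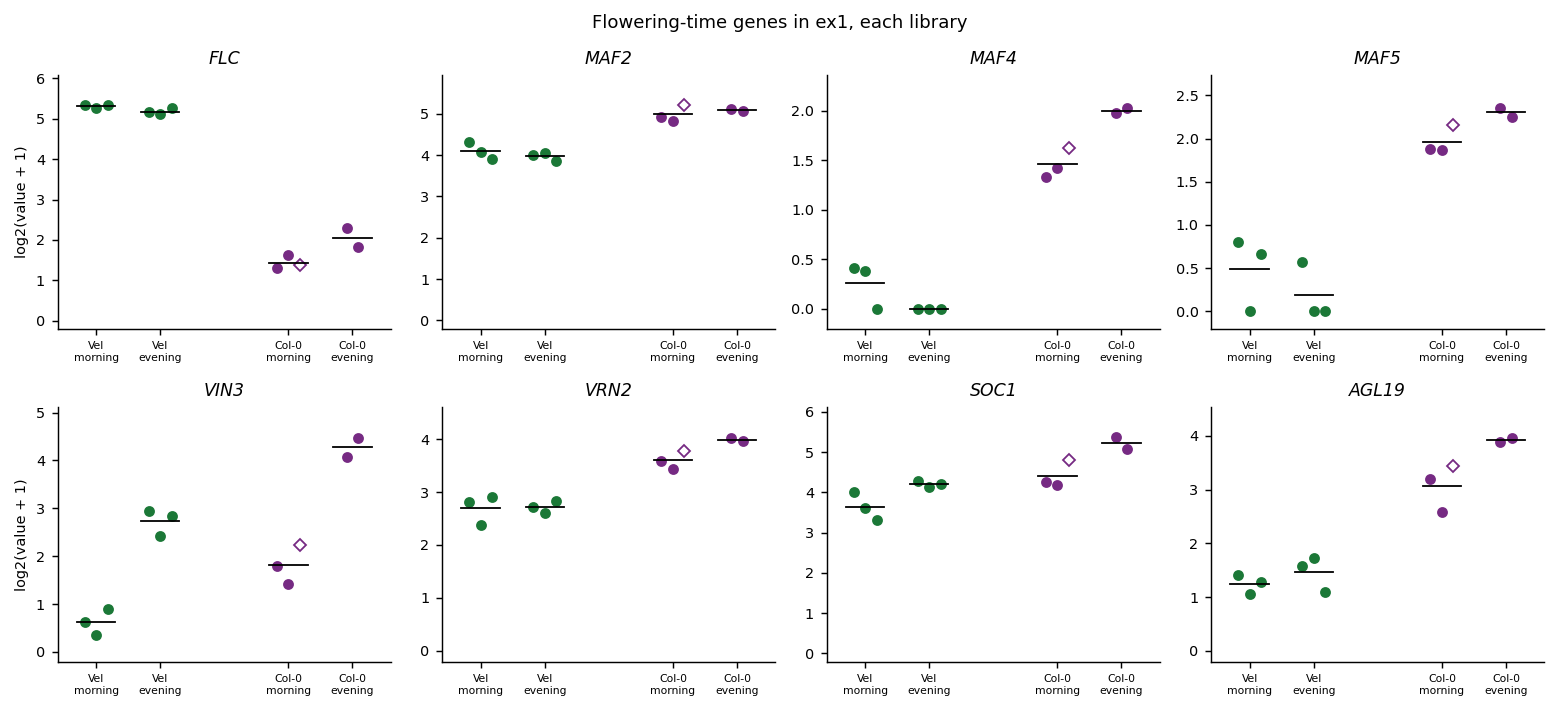
Expression of 8 flowering-time genes in ex1, in log2(value + 1), with 1 point per library and a bar at each group mean (Vel green, Col-0 purple, Col-0 morning replicate 3 as an open diamond). FLC lay at 5.12 to 5.35 in Vel and 1.3 to 2.29 in Col-0, and the other 7 genes had lower means in Vel at both hours.

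The glucosinolate genes split, with some enzymes of the side chain and of breakdown far higher in Vel and others lower. AOP2, an enzyme that turns the side chain of aliphatic glucosinolates into an alkenyl form and whose Col-0 copy is known not to give a working enzyme, had 7.17, 6.66, 7.29, 7.02, 6.52 and 6.53 in Vel and 3.02, 3.33, 3.70, 3.88 and 5.03 in Col-0. There was no overlap, and the difference was 2.96 (SE 0.252, limma adjusted p = 4.7e-15). AOP3, its neighbour, reached only 0.24 in Vel and 0 in Col-0 and was not tested. AOP1, the third gene of that cluster, was lower, with a difference of -0.98 (SE 0.136, limma adjusted p = 3.0e-08).

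Of 19 aliphatic glucosinolate genes tested, 4 were higher and 5 lower (median -0.12), which is near the background in both directions. MAM1, which adds the first carbons to the methionine side chain, had 6.04 to 6.94 in Vel and 7.38 to 8.14 in Col-0 (-1.37, SE 0.260, limma adjusted p = 2.0e-05). MAM3, its tandem relative for longer chains, went the other way by 1.14 (SE 0.237, limma adjusted p = 9.2e-05), with 4.49 to 5.35 in Vel and 3.03 to 4.56 in Col-0. GS-OH, which hydroxylates the alkenyl product of AOP2, had 5.84 to 6.49 in Vel and 7.68 to 8.47 in Col-0, without overlap (-1.93, SE 0.340, limma adjusted p = 5.6e-06). BAT5, a carrier of chain-elongation intermediates into the plastid, was lower, with a difference of -1.38 (SE 0.217, limma adjusted p = 6.1e-07). BZO1, a benzoyl-CoA ligase gene, was higher by 0.70 (SE 0.095, limma adjusted p = 1.5e-08) at low values in both accessions.

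Among 9 myrosinase and specifier genes tested, 2 were higher and 2 were lower (median -0.22). ESP, the epithiospecifier protein that diverts breakdown of alkenyl glucosinolates from isothiocyanates to nitriles, had 7.80, 7.45, 7.79, 7.84, 7.92 and 7.67 in Vel and 2.75, 3.33, 3.46, 3.76 and 3.03 in Col-0. Every Vel pool exceeded every Col-0 pool by more than 3 units, and the difference was 4.46 (SE 0.204, limma adjusted p = 8.8e-27). NSP4, a nitrile specifier gene, was higher by 0.80 (SE 0.195, limma adjusted p = 7.4e-04). The myrosinase TGG2 had 4.30 to 4.87 in Vel and 7.06 to 7.38 in Col-0 (-2.74, SE 0.289, limma adjusted p = 1.1e-11), and TGG1, the major leaf myrosinase, 8.06 to 8.66 and 9.44 to 9.92 (-1.25, SE 0.204, limma adjusted p = 1.2e-06). Neither overlapped.

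Of 12 indolic glucosinolate genes, 6 were lower and none higher (median -0.51), and 5 were lower without Col-0 morning replicate 3. At an unadjusted p under 0.05, none of the 12 was higher. CYP79B2 and CYP79B3, which turn tryptophan into the oxime precursor, differed by -1.92 (SE 0.457, limma adjusted p = 5.7e-04) and -1.31 (SE 0.385, limma adjusted p = 0.0048). The call on CYP79B3 was lost without Col-0 evening replicate 3 (-1.0, limma adjusted p = 0.0751). CYP83B1, the next enzyme, differed by -1.04 (SE 0.189, limma adjusted p = 1.1e-05). IGMT1, a methyltransferase of the indole ring, had 0.21 to 0.64 in Vel and 1.28 to 2.34 in Col-0 (-1.30, SE 0.208, limma adjusted p = 9.1e-07). Its relative IGMT2 had 0.43 and did not pass (limma adjusted p = 0.224).

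**Figure D3:**
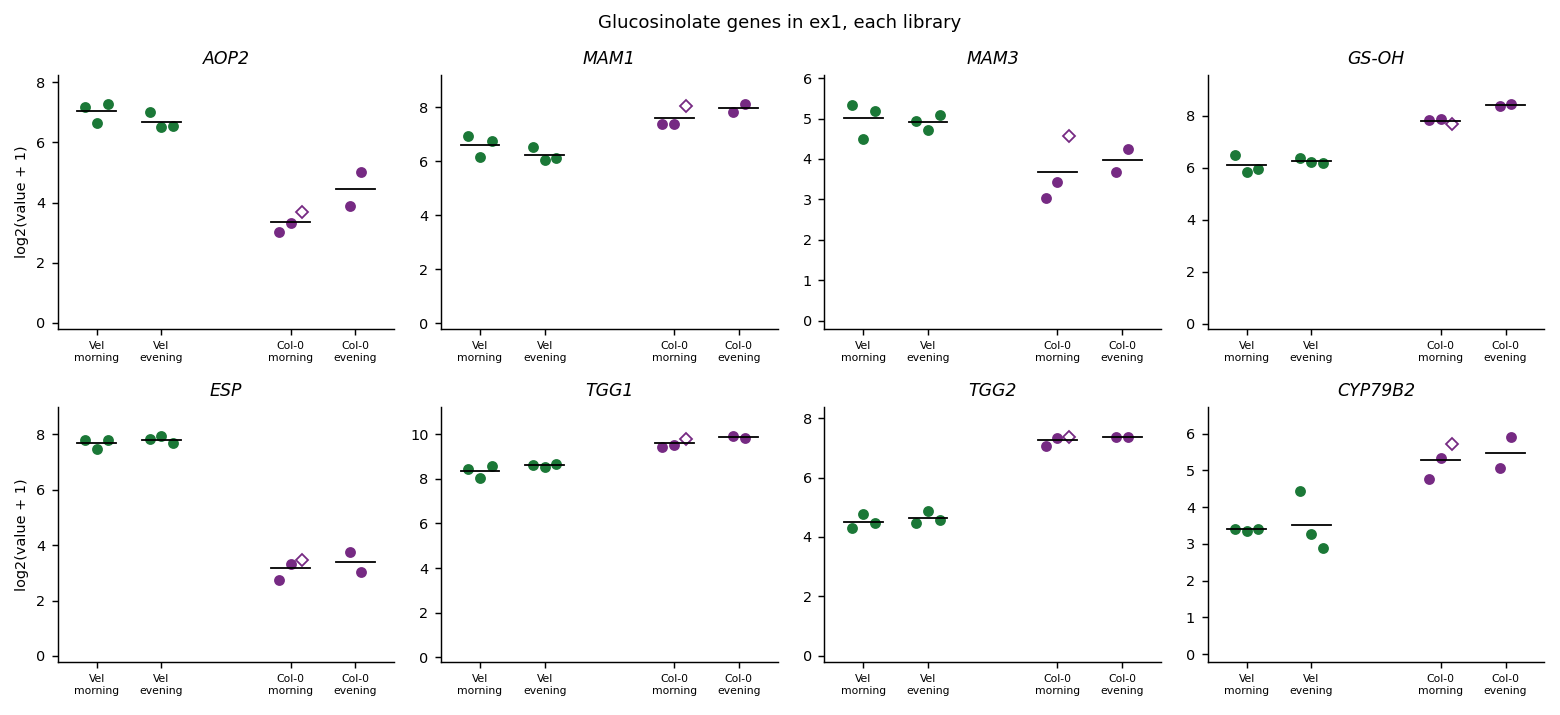
Expression of 8 glucosinolate genes in ex1, in log2(value + 1), with 1 point per library and a bar at each group mean (Vel green, Col-0 purple, Col-0 morning replicate 3 as an open diamond). AOP2, MAM3 and ESP had higher means in Vel, ESP by 4.46, and MAM1, GS-OH, TGG1, TGG2 and CYP79B2 had lower ones.

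Anthocyanin genes were lower in Vel as a group. Of 24 flavonoid and anthocyanin genes, 18 were lower, 2 were higher and 4 did not pass (median -0.76), and 17 were lower without Col-0 morning replicate 3 (median -0.63). DFR, the first committed enzyme of anthocyanin synthesis, had 2.37, 3.09, 2.88, 2.29, 2.69 and 3.34 in Vel, against 4.97, 4.90 and 7.17 in Col-0 mornings and 5.91 and 7.99 in Col-0 evenings. The accessions did not overlap, but Col-0 pools spread over 3 units. The difference of DFR was -3.54 (SE 0.400, limma adjusted p = 9.4e-11), and that of LDOX, the next enzyme, -3.04 (SE 0.350, limma adjusted p = 1.6e-10). These values rest on a spread shared by all 28 groups, not on that of the Col-0 pools alone. Over the alternative runs the limma adjusted p reached 0.00125 for DFR and 0.00143 for LDOX. UGT79B1, which adds xylose to the pigment, differed by -3.00 (SE 0.386, limma adjusted p = 4.3e-09). The MYB activator PAP1 differed by -2.78 (SE 0.336, limma adjusted p = 7.5e-10), with 1.39 to 2.64 in Vel and 3.46 to 5.88 in Col-0. Its bHLH partner TT8 had 2.36 to 3.45 in Vel and 3.60 to 5.96 in Col-0 (-1.98, SE 0.294, limma adjusted p = 1.6e-07). Early enzymes of the shared flavonoid pathway moved less, CHS by -0.81, CHI by -0.67 and F3H by -0.71, and FLS1, the flavonol branch enzyme, had -0.20 and did not pass. EGL3, another bHLH partner, was higher by 0.71 (limma adjusted p = 2.0e-04). MYBL2, a repressor of the pathway, was higher by 0.45 (limma adjusted p = 0.0414), but kept that call in only 12 of 20 alternative runs (limma adjusted p up to 0.203).

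The upstream windows of DFR and LDOX are shown because these 2 adjacent enzymes moved together. Each is the 250 bases before the annotated gene start on the coding strand, from RefSeq TAIR10.1, chr5:17166033-17166282 for DFR and chr4:12006210-12006459 for LDOX, both on the minus strand. Both strands were searched for the G-box CACGTG, in capitals below.
DFR: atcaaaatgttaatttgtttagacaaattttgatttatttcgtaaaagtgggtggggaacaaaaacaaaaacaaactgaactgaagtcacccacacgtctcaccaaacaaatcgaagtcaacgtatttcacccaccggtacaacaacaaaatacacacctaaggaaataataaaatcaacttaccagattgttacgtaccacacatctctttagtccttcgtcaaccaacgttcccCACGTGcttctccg
LDOX: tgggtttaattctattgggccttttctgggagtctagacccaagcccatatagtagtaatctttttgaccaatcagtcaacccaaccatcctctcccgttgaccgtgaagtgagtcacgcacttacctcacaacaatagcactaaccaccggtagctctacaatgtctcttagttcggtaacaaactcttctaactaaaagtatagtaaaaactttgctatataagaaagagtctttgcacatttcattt
DFR held 1 G-box near its start and LDOX held none. Of the 24 flavonoid windows 7 held a G-box (29.2%), and of 27443 windows of all protein-coding nuclear genes 1780 did (6.49%).

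Within Col-0 the anthocyanin genes were highest in 3 libraries, morning replicate 3 and both evening pools, and several nitrate-response genes, LBD37, LBD38, LBD39, NIR1 and HHO2, were lowest in the same libraries. The set of 11 nitrate genes they come from was drawn up after this was seen, and its values are a description. Of the 11, 6 were higher in Vel and 1 lower (median 0.77), and 4 and 1 without Col-0 morning replicate 3 (median 0.39), while NIA1, NIA2, NRT1.1 and UPM1 had 0.84, 0.41, -0.16 and 0.07 and did not pass. LBD37, a repressor of anthocyanin genes under ample nitrogen, had 5.80, 5.93, 5.70, 4.99, 5.13 and 3.99 in Vel, against 4.06, 4.14 and 1.18 in Col-0 mornings and 3.17 and 1.81 in Col-0 evenings. NIR1, nitrite reductase, had 6.01 to 6.94 in Vel, 6.76, 6.44 and 4.87 in Col-0 mornings and 5.37 and 4.41 in Col-0 evenings. GLN1;4, a cytosolic glutamine synthetase, ran the other way, with 2.25 to 2.99 in Vel, 2.27, 2.73 and 6.46 in Col-0 mornings and 4.1 and 6.0 in Col-0 evenings. The differences without Col-0 morning replicate 3 were 1.96 for LBD37, 0.66 for NIR1 and -1.26 for GLN1;4, and with it 2.45, 0.95 and -1.92. LBD38 and LBD39, relatives of LBD37, had differences of 0.77 and 1.37 with that library and 0.34 and 0.86 without it. NIR1 and LBD38 lost their calls without it. The part of nitrogen supply in the anthocyanin difference was not tested.

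**Figure D4:**
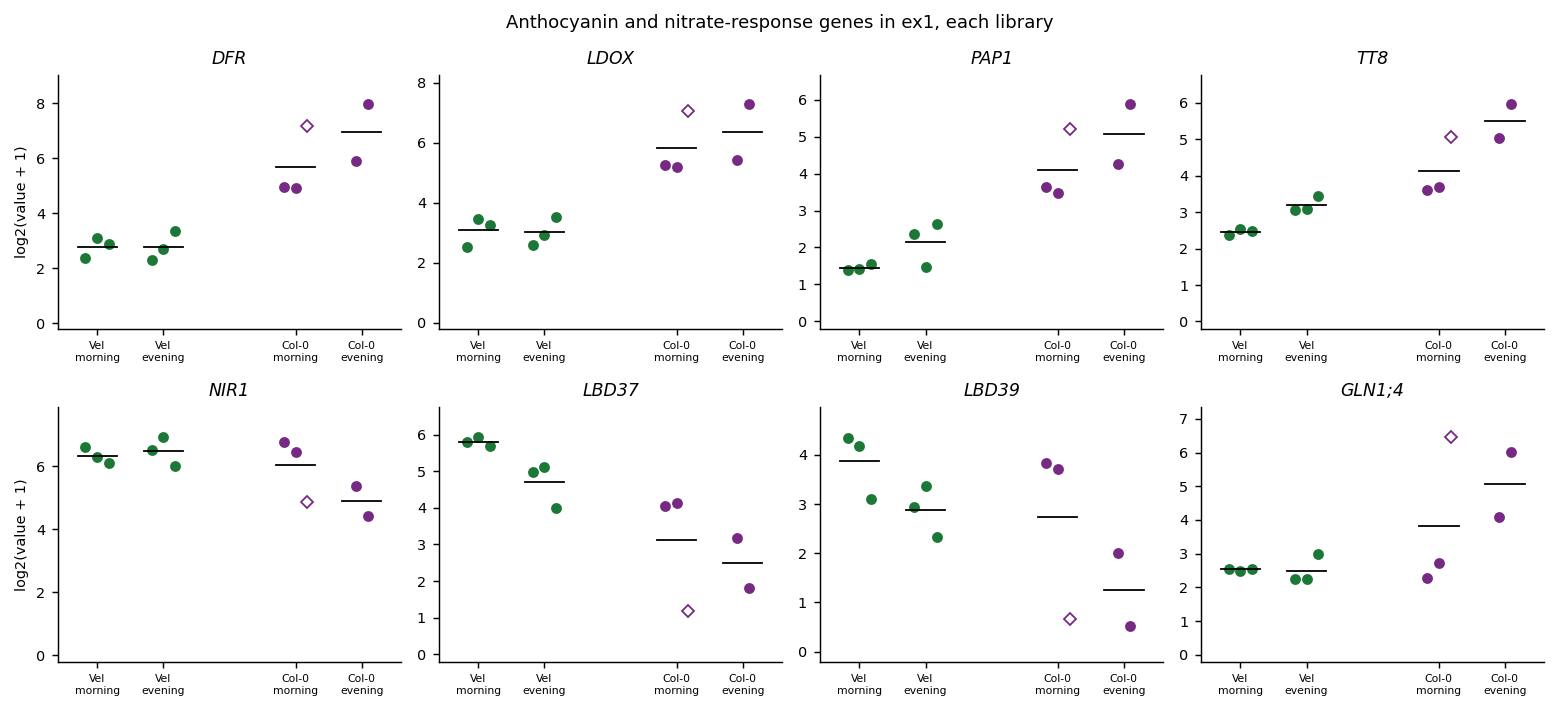
Expression of 4 anthocyanin genes (top) and 4 nitrate-response genes (bottom) in ex1, in log2(value + 1), with 1 point per library and a bar at each group mean (Vel green, Col-0 purple, Col-0 morning replicate 3 as an open diamond). DFR, LDOX, PAP1 and TT8 were lower in every Vel library than in any Col-0 library, and LBD37 was at 1.18 in Col-0 morning replicate 3.

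Immune receptor genes gave mostly lower values in Vel, and several gave none. Of 27 receptors and related genes listed, 25 were tested, 15 were lower, 3 were higher and 7 did not pass (median -0.53). In 12 of the 15 all Vel libraries lay below all Col-0 libraries. Counts without Col-0 morning replicate 3 were 15 lower and 2 higher (median -0.39). Reads of every accession were aligned to the TAIR10 genome, which is that of Col-0, so a missing or diverged Vel copy and less RNA cannot be told apart in these values.

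HR4, of the RPW8 family that guards against powdery mildew, was listed at 0 in all 6 Vel libraries and had 5.81, 4.27, 4.78, 4.21 and 4.09 in Col-0. WRR4, a receptor for white rust, had 1.27, 0.76, 1.02, 0.71, 0.88 and 0.80 in Vel and 4.41, 4.31, 5.54, 3.98 and 3.75 in Col-0, a difference of -3.40 (SE 0.276, limma adjusted p = 7.8e-16). RPP7, a downy mildew receptor, had 2.31 to 2.75 in Vel and 4.98 to 5.74 in Col-0 (-2.69, SE 0.162, limma adjusted p = 3.0e-21). None of these overlapped. RPP1, another downy mildew receptor of a variable cluster, differed by -1.93 (SE 0.141, limma adjusted p = 1.5e-17).

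RPP4, RPP5 and SNC1 lie in 1 cluster of similar copies, and reads may be split among them. RPP5 was lower, with a difference of -1.42 and SNC1 by -0.95, while RPP4 was higher by 0.47 (limma adjusted p = 5.5e-04). RRS1 and RPS4, a divergently transcribed receptor pair, were lower, with a difference of -1.09 and -0.80. ACD6, a membrane protein that tunes defence against growth, was lower, with a difference of -1.80 (SE 0.390, limma adjusted p = 1.6e-04). The surface receptors EFR and FLS2, which detect bacterial proteins, were higher by 0.43 and 0.33, FLS2 not without Col-0 morning replicate 3 (0.32, limma adjusted p = 0.0758).

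A wider set, all 127 tested genes whose reference product name is that of a nucleotide-binding or disease resistance protein, held 70 lower genes (55.1%) and 18 higher ones (14.2%), with a median of -0.43. Of these 70, 43 were at least 2-fold lower, and of the 18 higher ones 6 were at least 2-fold higher. Over all genes tested, 3.29% were called and at least 2-fold lower and 2.45% called and at least 2-fold higher. Of the 127, 20 were listed at 0 in all Vel libraries, 3 in all Bon libraries, 6 in all Moj libraries and 4 in all Col-0 libraries. The share of all genes at 0 in each accession is not given here. The count for Bon also needs a 0 in its evening replicate 3. As described below, that library had values above 0 for genes at 0 in other Bon libraries, which can lower the count. In the comparison of Vel with Bon, in which neither is the source of the genome, 44 of the 127 were lower (34.6%) and 32 higher (25.2%), and over all genes 15.4% and 15.6%. Against Moj 47 were lower (37.0%) and 27 higher (21.3%), and over all genes 10.6% and 11.1%. These comparisons share the Vel libraries with the one to Col-0, and that with Bon includes Bon evening replicate 3.

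**Figure D5:**
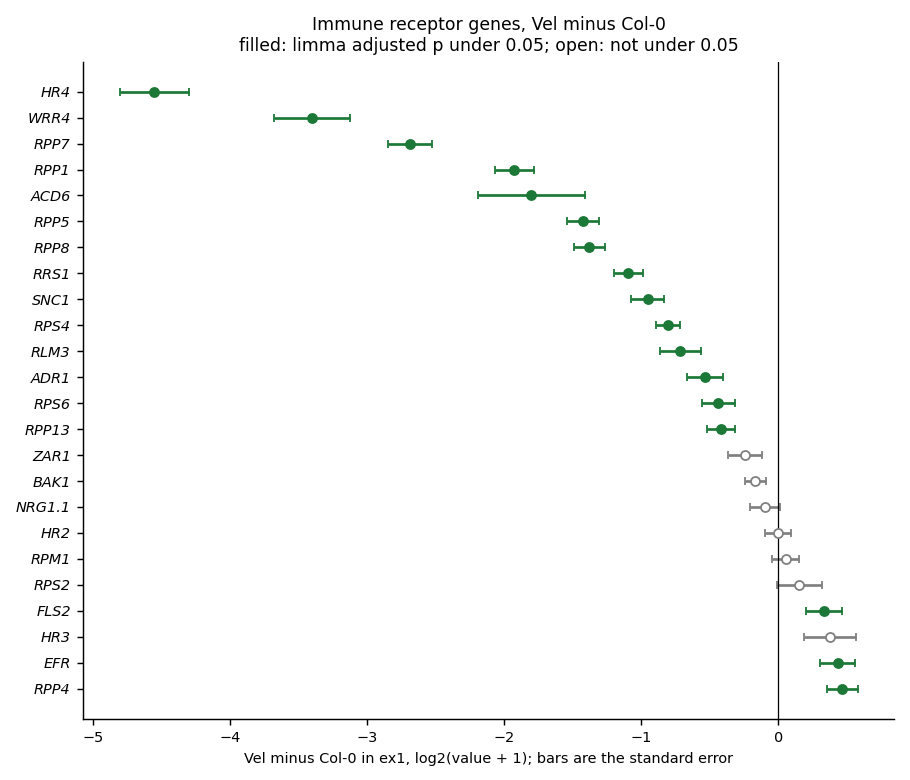
Difference of 24 of the 25 tested immune receptor genes, Vel minus Col-0 in ex1, in log2(value + 1) units, with bars of 1 standard error. Filled points had a limma adjusted p under 0.05, and they ran from HR4 at -4.55 to RPP4 at 0.47.

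Salicylic acid defence genes did not move together. Of 22, 5 were higher and 3 lower (median 0.08), 4 and 3 without Col-0 morning replicate 3, which is near the background. PR1, the standard marker of that pathway, had 3.67, 4.21, 6.59, 4.22, 5.11 and 5.68 in Vel and 4.09, 2.39, 0.90, 1.19 and 0.19 in Col-0. Only the highest Col-0 pool overlapped Vel, and the difference was 3.34 (SE 0.546, limma adjusted p = 1.3e-06). WRKY54, a transcription factor that damps the pathway, was higher in every Vel library (1.32, SE 0.247, limma adjusted p = 1.6e-05), and LURP1, induced by oomycete infection, by 1.55 (SE 0.387, limma adjusted p = 1.0e-03). CBP60G, an activator of salicylic acid synthesis, was lower, with a difference of -1.18 (SE 0.216, limma adjusted p = 1.2e-05). Of 16 jasmonate and wound genes 1 passed, PDF1.2, a defensin with near-identical copies to which reads may be misassigned. Its relatives PDF1.2b, PDF1.2c and PDF1.3 went the other way, by 1.53, 0.89 and 0.89, and did not pass (limma adjusted p = 0.331, 0.665 and 0.630). PDF1.2 was 0 in 5 of 6 Vel libraries and 1.99 to 4.26 in Col-0 (-2.95, SE 1.05, limma adjusted p = 0.0207), and without Col-0 evening replicate 1 it did not pass (-2.74, limma adjusted p = 0.0743). None of 5 terpene synthesis genes tested passed, TPS03 having an unadjusted p under 0.05, and 11 more were too low to test.

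Cold-protection genes were lower in Vel more often than the background, while the CBF activators above them did not differ clearly. Of 17 cold genes 7 were lower and none higher (median -0.49), and 5 were lower without Col-0 morning replicate 3 (median -0.29). At an unadjusted p under 0.05, 7 were lower and 1 was higher. CBF1 and CBF2 had differences of 0.12 (SE 0.252, limma adjusted p = 0.760) and -0.02 (SE 0.271, limma adjusted p = 0.965). CBF1 averaged 5.99 in mornings and 2.51 in evenings in Vel, against 6.28 and 2.00 in Col-0. CBF3 was lower, with a difference of -0.57 (SE 0.217, limma adjusted p = 0.0313), a call lost without Col-0 morning replicate 3 (-0.41, limma adjusted p = 0.157), without Col-0 evening replicate 3 (-0.44, limma adjusted p = 0.184) and without any of 3 Vel libraries. GOLS3, of raffinose synthesis, was lower, with a difference of -1.25 (SE 0.330, limma adjusted p = 0.0018). COR414-TM1, a chloroplast membrane protein gene, differed by -1.01 (SE 0.248, limma adjusted p = 8.1e-04), and COR413-PM1, another membrane protein gene, by -0.90 (SE 0.185, limma adjusted p = 7.7e-05). COR15A and COR15B, chloroplast protectants, held ranks 3 to 14 in these libraries, where a rank has a fixed value, so a difference in them would hardly show.

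KIN1 and COR6.6 are neighbouring genes for similar small hydrophilic proteins, and they did not behave alike. KIN1 had 8.51, 7.79, 7.74, 8.93, 8.28 and 8.58 in Vel and 9.59, 9.46, 10.42, 9.71 and 10.31 in Col-0, without overlap (-1.61, SE 0.278, limma adjusted p = 3.9e-06). COR6.6 averaged 9.93 in Vel and 9.96 in Col-0, with ranges that overlapped (-0.03, SE 0.244, limma adjusted p = 0.941). Reads may be misassigned between such similar copies. The 250 bases before each annotated start are shown to compare the pair, from RefSeq TAIR10.1, plus strand, chr5:5209467-5209716 for KIN1 and chr5:5211469-5211718 for COR6.6.
KIN1: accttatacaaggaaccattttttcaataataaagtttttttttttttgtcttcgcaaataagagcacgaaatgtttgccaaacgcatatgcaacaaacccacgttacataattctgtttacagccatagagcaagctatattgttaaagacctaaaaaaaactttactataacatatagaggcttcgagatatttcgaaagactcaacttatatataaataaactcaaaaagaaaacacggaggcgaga
COR6.6: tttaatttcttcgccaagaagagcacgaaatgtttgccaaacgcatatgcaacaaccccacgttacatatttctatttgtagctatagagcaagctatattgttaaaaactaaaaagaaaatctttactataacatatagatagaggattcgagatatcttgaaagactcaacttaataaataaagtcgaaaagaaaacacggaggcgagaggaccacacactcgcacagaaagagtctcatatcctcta
The longest run of letters shared by the windows was 37 bases. Neither held the C-repeat core CCGAC on either strand, which 6 of 17 cold gene windows (35.3%) and 3285 of 27443 windows of all protein-coding nuclear genes (12.0%) held.

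Of 14 drought and abscisic acid genes 6 were lower and 1 was higher (median -0.42), and 2 and 1 without Col-0 morning replicate 3. ABF3, a transcription factor of abscisic acid signalling, was lower, with a difference of -0.92 (SE 0.135, limma adjusted p = 1.4e-07), and ABI1, a phosphatase that restrains the signal, by -0.46 (limma adjusted p = 0.0014). NCED3, the rate-limiting synthesis enzyme, was lower, with a difference of -0.62 (limma adjusted p = 0.0101), not without Col-0 morning replicate 3 (-0.45, limma adjusted p = 0.0747) or evening replicate 3 (-0.43, limma adjusted p = 0.146). DOG1, the seed dormancy gene, had 0.90 to 3.27 in Vel and 0 to 2.2 in Col-0 (0.95, SE 0.121, limma adjusted p = 3.0e-09). Of 9 heat genes tested 3 were higher, none lower (median 0.33), and at an unadjusted p under 0.05 none was lower. HSP101, a chaperone of heat tolerance, had 2.28 to 3.05 in Vel and 1.53 to 1.71 in Col-0 (1.0, SE 0.196, limma adjusted p = 3.6e-05). MBF1C and HSA32 were higher by 0.71 and 0.52 and lost their calls without Col-0 evening replicate 1 (limma adjusted p = 0.0536 and 0.0760), HSA32 also without Col-0 evening replicate 3 (0.0615) and without 3 Vel libraries in turn.

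Averaged over both hours, differences of the clock genes ran from -1.08 to 0.73. Of 12 morning clock genes 7 were lower, none higher (median -0.35), and 6 were lower without Col-0 morning replicate 3. In the morning alone 1 of the 12 was lower (median -0.16), and 9.77% of all genes were, and in the evening alone 8 were (median -0.58), and 16.2% of all genes. At an unadjusted p under 0.05, none of the 12 was higher over both hours. LHY, a dawn MYB repressor, was lower, with a difference of -0.53 (SE 0.121, limma adjusted p = 3.9e-04), and its partner CCA1 had -0.31, which did not pass (SE 0.139, limma adjusted p = 0.0692). RVE8, a related activator of afternoon genes, had 3.66 to 4.44 in Vel and 4.50 to 5.02 in Col-0, without overlap (-0.80, SE 0.157, limma adjusted p = 3.8e-05). LNK1, a cofactor of RVE8, was lower, with a difference of -0.62 (limma adjusted p = 1.4e-05), and RVE6 by -0.43 (limma adjusted p = 4.9e-04).

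Of 14 day and evening clock genes 6 were lower and 1 higher (median -0.26), and 3 and 1 without Col-0 morning replicate 3. PRR5, a repressor of the dawn genes, had 3.14, 2.90 and 2.83 in Vel mornings and 6.62, 6.49 and 6.37 in Vel evenings, against 4.33, 4.61 and 5.35 in Col-0 mornings and 6.89 and 6.79 in Col-0 evenings. Its accession difference lay mostly in the morning, and averaged -1.08 (SE 0.145, limma adjusted p = 1.6e-08). CHE, a repressor of CCA1, was higher by 0.73 (SE 0.180, limma adjusted p = 8.6e-04). LKP2, a relative of the evening receptor FKF1, was lower, with a difference of -0.33 (limma adjusted p = 0.0050), and BOA, a relative of LUX, by -0.55 (limma adjusted p = 0.0017), the last not without Col-0 evening replicate 3 (-0.39, limma adjusted p = 0.0577). TOC1 had -0.19 (SE 0.0945, limma adjusted p = 0.113). GI was lower, with a difference of -0.43 (SE 0.170, limma adjusted p = 0.0389). The call was lost when any of 3 Col-0 or 4 Vel libraries was left out, with limma adjusted p up to 0.140. Without Col-0 morning replicate 3 the difference of GI was -0.34 (limma adjusted p = 0.140). FKF1 was lower, with a difference of -0.62 with Col-0 morning replicate 3 and had -0.41 without it, where it did not pass.

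Of 12 growth and shade genes 3 were lower, none higher (median -0.02), and none was higher at an unadjusted p under 0.05 other than PIF4 at 0.30. PIF3 and PIF5, bHLH factors that light degrades, were lower in every Vel library, by -0.76 (SE 0.109, limma adjusted p = 7.5e-08) and -0.71 (SE 0.136, limma adjusted p = 2.2e-05). CRY2, a blue light receptor that promotes flowering, was lower, with a difference of -0.46 (SE 0.087, limma adjusted p = 2.6e-05).

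Of 21 nuclear photosynthesis genes 5 were higher and none lower (median 0.26), and 4 were higher without Col-0 morning replicate 3. LHCB2.2, a light-harvesting gene with a near-identical copy, had 9.73 to 10.09 in Vel and 8.64 to 9.44 in Col-0 (0.84, SE 0.220, limma adjusted p = 0.0017). The copy, LHCB2.1, had -0.19 and did not pass (limma adjusted p = 0.498), and reads may be split between them. RBCS1B, a small subunit of Rubisco, was higher by 1.04 (SE 0.257, limma adjusted p = 8.8e-04). Other small subunit genes, RBCS2B and RBCS3B, had 0.57 and 0.50 and did not pass (limma adjusted p = 0.110 and 0.123). GAPB, of the Calvin cycle, was higher by 0.46 and LHCA1, an antenna gene of photosystem I, by 0.52. RBCS1A and CAB1 held ranks 1 and 2 in all 11 libraries, where no difference can be seen. None of the 6 leaf markers passed. Of 14 iron and metal genes tested 2 were higher and none lower (median 0.11), NAS4, a nicotianamine synthase, by 1.04 (limma adjusted p = 0.0019) and FER4, a ferritin, by 0.54 (limma adjusted p = 0.0022).

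Trichome genes went both ways, 2 higher and 2 lower of 12 (median 0.01). TTG2, a WRKY gene of trichome and seed coat development, had 2.63 to 3.16 in Vel and 3.35 to 5.49 in Col-0 (-1.57, SE 0.235, limma adjusted p = 2.1e-07). It was highest in the Col-0 libraries with the most DFR. CPL3, a single-repeat MYB, was lower, with a difference of -0.83 and its relatives TRY and ETC2, inhibitors of trichome fate, were higher by 0.89 and 0.47 (limma adjusted p = 7.5e-04, 2.5e-04 and 0.0229), ETC2 not without Col-0 evening replicate 1 (0.32, limma adjusted p = 0.206). Of 11 senescence genes 2 were lower and none higher (median -0.21), WRKY53 by -0.58 and PPH by -0.59, and neither passed without Col-0 morning replicate 3 (limma adjusted p = 0.0816 and 0.0757) or without evening replicate 3 (0.0830 and 0.125). LAC4, a laccase of lignin, was the 1 of 6 stem markers that passed, lower, with a difference of -0.92 (limma adjusted p = 0.0294). It lost the call without any of 3 Col-0 or 2 Vel libraries (limma adjusted p up to 0.111). Without Col-0 morning replicate 3 the difference of LAC4 was -0.87 (limma adjusted p = 0.0619). AG, at 0.53 to 0.75 in Vel and at most 0.41 in Col-0, was the 1 of 7 flower organ markers that passed (0.51, limma adjusted p = 0.0039).

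The largest differences were nearly all-or-none. The thionin gene AT1G66100, for a small antimicrobial peptide, was listed at 0 in 5 of 6 Vel libraries and at 1.13 in the sixth, against 7.32, 7.53, 7.68, 6.90 and 7.79 in Col-0 (-7.24, SE 0.552, limma adjusted p = 7.2e-17). Its means were 7.65 in Bon and 7.95 in Moj, so among the 4 accessions it was low in Vel alone in ex1 (Vel against Bon and against Moj, limma adjusted p = 2.2e-18 and 1.0e-17). TIR, a truncated receptor with a Toll domain, reached 1.73 in Vel and lay at 5.38 to 7.58 in Col-0 (-5.48, SE 0.180, limma adjusted p = 1.0e-33). The receptor genes AT1G63880 and AT4G19520 of the TIR class were lower, with a difference of -4.48 and -4.41. AT4G19520 had means of 4.34 in Bon and 4.27 in Moj, and AT1G63880 0.30 and 0.26. The other 7 of the 12 largest beside HR4 were 6 uncharacterized genes, from AT1G24996 at -5.78 to AT5G66052 at -4.61, and AT2G04378, related to beta-galactosidase, at -4.58.

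Of the 12 largest differences in the other direction, ESP was the 1 gene with a well-known role. AT5G41660, an uncharacterized gene, had 6.32 to 6.67 in Vel and 0 to 1.17 in Col-0 (6.14, SE 0.132, limma adjusted p = 2.0e-42). AT2G37435, a cystatin-family gene, had 5.29 to 5.69 in Vel and 0 in every Col-0 library (5.41), with means of 5.32 in Bon and 0.06 in Moj. AT2G43960, a gene with an RNA-binding surp domain, had 4.16 to 4.53 in Vel and at most 0.34 in Col-0, and its means were 0.06 in Bon and 0.08 in Moj. AT2G36540, a hydrolase gene, varied more within Vel, at 3.53 to 6.25 against 0 to 1.72 (4.48, SE 0.417). AT3G24542, a relative of AT2G04378, was higher by 5.35, AT2G15130, of a secretory protein family, by 4.37, and 5 further uncharacterized genes by 4.28 to 5.45.

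By a stricter rule, 19 genes were at 3 or more in every Vel library and under 0.5 in every Col-0 library, 11 of them protein coding and 6 pseudogenes. The reverse held for 34 genes, 24 of them protein coding and 7 pseudogenes. Of these 34, 20 were also under 0.5 in every Moj library and none in every Bon library, and 5 and 6 were at 3 or more in every library of Bon and of Moj. The counts for Bon include its evening replicate 3, in which all 34 were above 0. Of the 19, 8 were also at 3 or more in every Bon library and 3 in every Moj library, and 5 and 10 were under 0.5 in every library of Bon and of Moj. AT3G45910 and AT5G28560, both uncharacterized, were at 3.81 or more in Vel and 0 in every ex1 library of Bon, Moj and Col-0. AT5G24240, a phosphatidylinositol 4-kinase-like gene, was at 4.18 to 4.51 in Vel and at most 0.30 in Col-0. A wider count of genes at 0 in all libraries of 1 accession and at 1 or more in all of the other gave 93 genes silent in Vel and 29 silent in Col-0. With reads aligned to the Col-0 genome, absence of the gene in Vel and absence of its RNA cannot be told apart.

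The 34 genes off in Vel had to be low in Vel and high in Col-0, so only the other accessions are read here. In Bon evening replicate 3 all 34 were above 0, at a median of 17.0% of the Col-0 level, and in the other 5 Bon libraries at most 0.57%.

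The hours were also compared apart. In the morning 4032 genes (19.3%) differed between 3 Vel and 3 Col-0 libraries, and in the evening 6566 (31.4%) between 3 and 2. A test of the evening difference minus the morning difference called 256 genes (1.23%), and a gene not called there is not shown to be alike at both hours. Flavonoid genes were lower in 10 of 24 cases in the morning and 19 in the evening, and none of the 24 was called in that test at a limma adjusted p or an unadjusted p under 0.05. None of the 12 morning clock genes was called either, with 4 at an unadjusted p under 0.05. AT2G22590, a glycosyltransferase gene, had means of 2.41 in Vel and 6.33 in Col-0 in the evening and 1.56 and 2.87 in the morning (-2.61, limma adjusted p = 4.1e-07). AT4G18650, annotated as transcription factor-like, had 4.20 in Vel and 0.90 in Col-0 in the evening, and 0.68 and 0.24 in the morning (2.86, limma adjusted p = 1.8e-08). AT5G38260, a kinase gene almost absent from Col-0, was higher in Vel mornings, at 2.59, than in Vel evenings, at 0.73. AT1G15885 and AT2G27402 were 0 in every Vel library, so their interactions reflect a morning level in Col-0 above its evening level, and AT3G45900 had a difference of -1.06 between hours. Without Col-0 morning replicate 3 the count was 1154 genes, without Col-0 evening replicate 1 it was 113, and with the 11 libraries alone it was 24.

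Many differences were not the same in the second collection, ex2, with 6 Vel and 6 Col-0 libraries. A test of the ex1 difference minus the ex2 difference called 6424 genes (30.8%). For FLC the ex1 difference was larger by 0.83 on the log2(value + 1) scale (SE 0.166, limma adjusted p = 1.0e-04), with ex2 means of 2.83 in Vel and 0.16 in Col-0. The Col-0 mean in ex2 was near the floor, where this scale understates a difference. Back-transformed, the FLC means gave 37.0 in Vel and 2.35 in Col-0 in ex1, a ratio of 15.7, and 6.10 and 0.115 in ex2, a ratio of 53.0, so which collection shows the larger difference depends on the offset. For SOC1 the ex2 means were 4.70 in Vel and 4.47 in Col-0, so the lower level of Vel in ex1 was not seen there (-1.12, SE 0.227, limma adjusted p = 1.2e-04). Of the lists, 18 of 22 salicylic acid genes, 9 of 11 senescence genes, 8 of 12 indolic glucosinolate genes and 14 of 25 immune receptors were called in this test, against 7 of 24 flavonoid genes and 1 of 17 cold genes. None of 20 FLC regulators was called, with 3 at an unadjusted p under 0.05. ESP, AOP2, MAM1 and, unlike most of its list, PR1 were not called (limma adjusted p = 0.268, 0.106, 0.107 and 0.602), with ex2 means of 8.0, 6.62, 5.08 and 11.1 in Vel and 3.13, 4.37, 7.19 and 7.16 in Col-0. AT2G44290, a lipid-transfer-like gene, turned round, at 1.46 in Vel and 3.67 in Col-0 in ex1 and 5.70 and 4.01 in ex2. AT1G57650 and AT3G57770, annotated as an ATP-binding and a kinase protein, reached 3.80 and 5.42 in Vel in ex2 and stayed at 0.24 and 1.29 in Col-0. AT5G62240, a cell-cycle microtubule gene, was at 0 in both accessions in ex2, and AT1G22120 was higher in Vel by 2.71 in ex1 and by less in ex2, at 0.94 against 0.

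Against the other Spanish accessions Vel differed in 6474 genes from Bon (31.0%) and in 4534 from Moj (21.7%). Without Bon evening replicate 3 the first count was 6525. Flavonoid genes were near the background in both, with 2 higher and 1 lower of 24 against Bon and 2 and 2 against Moj. DFR averaged 2.78 in Vel, 3.26 in Bon and 3.23 in Moj, against 6.32 in Col-0. Cold genes ran the other way from the comparison with Col-0 in Bon, with 10 of 17 higher and 1 lower (median 0.78), and against Moj 4 were higher and 1 lower (median 0.21). For the aliphatic glucosinolate genes Vel was lower in 9 of 19 against Bon and 7 of 19 against Moj and higher in 1 each, and GS-OH averaged 6.17 in Vel, 8.81 in Bon and 8.82 in Moj. ESP was lower in Vel than in both, with means of 7.75 in Vel, 9.5 in Bon and 10.2 in Moj.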

How the data were processed

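Deposited values are in log2 units, made by the authors with HISAT2 and StringTie on the TAIR10 genome after FastQC, per the submitters' processing notes, whose releases were not given in the sources used here. Their log2 scale, the offset of 1 and the quantile normalization were read from the values (0 to 13.3), and values were used as deposited. Of 33602 genes, 20880 reached 1 in 3 or more of 80 libraries and were fitted with limma 3.58.1 (R 4.3.3), with a trend, 1 mean for each of 28 groups of accession, collection and time, leaving 52 residual degrees of freedom. All tests are two-sided, with Benjamini-Hochberg adjustment over all genes tested and a threshold of 0.05. The fit was run on simulated data with independent normal noise of 1 spread per gene. That setting does not cover groups that vary more than others or a library that stands apart. The TruSeq v2 kit is unstranded, per the labels, and reads of overlapping genes cannot be separated.

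The comparison, the 26 gene lists and the naming rule were chosen with earlier results of these data known. Lists hold 365 genes, matched by locus, and a nitrate list was added after the values were seen. Named genes passed the threshold, were protein coding in the nucleus, reached a back-transformed mean of 5 in the higher accession and no overlap of libraries (the 12 largest each way). The 8 largest on or off genes each way, the 6 smallest p for time of day and for collection, up to 4 passing members of each list, and 21 genes such as FLC whatever their result were added. Examples beyond these, such as list members and further receptors, were chosen after their values were seen. RefSeq TAIR10.1, a later release of the assembly, gave names for 32835 identifiers and the sequences. Tables and figures used Python 3.11.15 with pandas 2.3.3 and matplotlib 3.10.9. The values of 1 listed gene are not reported here.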

Additional observations from a re-analysis of the deposited data

Results flagged for a closer look

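These results differed between the hours of the day or between collections by a test of the difference itself. The evening difference minus the morning difference of Vel and Col-0 was 1.27 for AT1G15885, 2.86 for AT4G18650, -1.88 for AT5G38260, -2.61 for AT2G22590, 2.18 for AT2G27402, -1.06 for AT3G45900, -1.07 for AT1G22120 and 1.45 for the clock gene PRR5. The limma adjusted p of these 8 was at most 0.0025.

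The ex1 difference minus the ex2 difference was 1.77 for AT1G22120, -3.27 for AT1G57650, -3.89 for AT2G44290, -3.40 for AT3G57770, 1.97 for AT5G62240 and -2.33 for AT1G03106. Among genes named whatever their result it was 0.83 for FLC, -1.12 for SOC1 and -0.62 for the clock gene TOC1. FLC in Col-0 in ex2 was near the floor, at 0.16, and the ratio of back-transformed means was larger in ex2 (53.0) than in ex1 (15.7), so the sign of 0.83 depends on the offset. The limma adjusted p of these 9 was at most 1.8e-04. Groups held 2 or 3 libraries, so no library was tested as an outlier within its group.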

How the results depend on the processing

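The count for Vel against Col-0 was 8205 and lay between 6703 and 8536 when 1 library was left out, and it stayed within 1.5 times under every alternative run. Fitting the compared libraries alone gave the lowest main count of all runs, 6220, of which 5734 were also called in the main run. That fit took the morning count to 1870 and that of genes whose difference depends on the hour to 24. Without a filter that last count was 472. Leaving out 1 library in turn gave 113 to 1154 for it. Counts by a left-out library were 2804 to 4420 for the morning, 4531 to 6879 for the evening, 5480 to 6942 for ex1 against ex2, 5555 to 6746 for Bon and 3681 to 4811 for Moj. With a replicate block the main count was 7733. The labels do not say that replicate numbers pair the pools, so that fit bears only on the numbers. Same-number correlations of deviations were -0.24, 0.27 and 0.04 in the morning and -0.16 and -0.06 in the evening. From groups of 2 or 3 libraries they can neither show nor exclude pairing. Of 178 listed or named genes called, 130 were called under every alternative, 48 lost the call under at least 1, and none reversed. Fitting the compared libraries alone ended 28 of these calls, leaving out Col-0 morning replicate 3 or evening replicate 3 ended 25 each and evening replicate 1 ended 21. The replicate block ended 7, no filter 5, an offset of 0.25 ended 4, no trend 2, a robust prior 1 and centring none. Depth is unknown, and quantile normalization hides differences at the highest ranks.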

Other observations

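Within the genes off in Vel, chosen here after their values were seen, 2 belong to 1 product family. LSM3A and AT2G14285, both annotated as small nuclear ribonucleoproteins, were listed at 0 in every Vel library of ex1, against at least 3.4 and 4.31 in every Col-0 library. In Bon they were at least 3.65 and 4.09 and in Moj at least 4.18 and 3.83, so both were off in Vel alone among the 4 accessions in ex1, which most of the 34 genes were not. LSM3A is a subunit of the complex that binds the end of the U6 spliceosomal RNA. A run of adjacent pseudogenes, AT3G29736, AT3G29738 and AT3G29739, showed the reverse, at 3.54 or more in every Vel library and at 3.88 or more in every Bon library, with at most 0.50 in Col-0 and 0.31 in Moj.

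Counts by annotated class were as follows, with no test between classes. Over all genes tested 20.0% were higher and 19.3% lower. The libraries are polyA RNA from an unstranded kit, so values of short noncoding RNA genes may come from overlapping transcripts. Of 147 long noncoding RNA genes tested 11 were higher in Vel and 43 lower, of 47 small nucleolar RNA genes 15 were higher and 2 lower, and of 69 miRNA genes 7 were higher and 9 lower. Of 40 tRNA genes 4 were higher and 3 lower, of 113 other noncoding RNA genes 21 were higher and 46 lower, and of 276 pseudogenes 80 were higher and 53 lower. Of 189 transcribed pseudogenes 58 were higher and 44 lower, and of 19887 protein-coding genes 3958 were higher and 3827 lower.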
